A study of Homo sapiens with 6 samples.

Results

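The glutathione peroxidase genes GPX1, GPX2, GPX3, GPX4, GPX7 and GPX8 are 6 of the 61552 genes listed for NCI-H520, a cell line grown from a human squamous cell carcinoma of the lung. They were taken by gene symbol, and the family was chosen by a measured value, the higher count of GPX3 after cisplatin in the very comparison described here. The fold changes of its members are therefore given as a description, without a p-value, and support nothing further. RNA was sequenced from wild-type cells grown in RPMI-1640 with 15% fetal bovine serum. The cells were kept for 48 h with cisplatin at 2 µM or with phosphate-buffered saline (PBS), 3 libraries each. Cisplatin is a platinum compound whose adducts crosslink DNA. The title of the study concerns the transcription factor SOX2 and drug resistance in this tumour type. Total counts ran from 9925328 to 16724285 per cisplatin library and from 9121180 to 15589897 per PBS library. The labels do not say that the libraries come from separate cultures, so every p-value here refers to library-to-library spread alone, which may be technical. Both groups come from 1 cell line, and in bulk RNA fewer cells with a transcript and less of it per cell cannot be told apart.

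Of the squamous markers, SOX2 was abundant at 323 ± 26.7 and 309 ± 24.2 CPM under cisplatin and PBS (SD, n = 3 each; CPM are counts scaled to a common library size, TMM-adjusted). TP63, the squamous lineage factor, was at 0.133 and 0.0890 CPM, and DSG3, a desmosomal cadherin of squamous epithelium, had no count in any library, so these defining markers were near or at 0. KRT14 and PKP1 were likewise under 1 CPM in both groups. KRT5, a basal keratin, was measurable at 4.72 ± 0.914 and 5.42 ± 0.811 CPM, and the desmosomal cadherin DSC3 at 6.82 ± 0.749 and 5.65 ± 1.59 CPM. Of the 9 squamous markers 5 could be tested, and TRIM29 was called, at 20.4 ± 1.83 CPM under cisplatin and 8.39 ± 1.27 CPM under PBS. Mitochondrially encoded genes took 3.65% ± 0.443 of counts under cisplatin and 4.99% ± 0.971 under PBS. The lung adenocarcinoma markers summed to 7.22 to 7.57 CPM in the cisplatin libraries and 3.46 to 4.67 CPM in the PBS libraries, nearly all of it NKX2-1, and the neuroendocrine markers to 7.93 to 8.89 and 8.68 to 12.3 CPM. The endothelial markers stayed under 1 CPM in sum in every library. The 4 immune markers summed to 0.445 to 0.661 CPM in the cisplatin libraries and to 0.976 to 1.23 CPM in the PBS libraries, with no count of PTPRC or CD3E. The 6 fibroblast markers summed to 23.0 to 24.5 and 10.5 to 15.3 CPM, nearly all of it COL1A1, while COL3A1 had no count in any library. The part of these markers and of the mitochondrial share in the results below was not tested.

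Glutathione peroxidases reduce hydrogen peroxide and organic hydroperoxides to water or alcohols, in most cases with electrons from glutathione. GPX1 is the cytosolic and mitochondrial enzyme of most cells, GPX2 an enzyme of gastrointestinal and other epithelia, GPX3 the secreted enzyme of blood plasma, and GPX4 the enzyme that reduces lipid hydroperoxides within membranes and so holds back ferroptosis. These enzymes carry selenocysteine at the active site, which the ribosome inserts at a UGA codon that would otherwise stop translation. GPX7 and GPX8, of the endoplasmic reticulum, carry cysteine there.

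That difference can be read in the coding sequences. The stretches of 51 bases around the active-site codon, from GENCODE 29 transcripts on GRCh38, are shown because this codon sets the selenium-dependent members apart from the others. They run 5′ to 3′ on the coding strand, and capitals mark the active-site codon.
GPX1: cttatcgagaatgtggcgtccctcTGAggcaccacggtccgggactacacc
GPX2: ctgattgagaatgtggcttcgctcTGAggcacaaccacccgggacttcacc
GPX3: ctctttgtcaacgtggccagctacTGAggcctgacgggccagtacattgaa
GPX4: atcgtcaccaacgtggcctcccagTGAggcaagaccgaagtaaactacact
GPX7: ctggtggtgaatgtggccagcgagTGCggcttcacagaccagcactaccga
GPX8: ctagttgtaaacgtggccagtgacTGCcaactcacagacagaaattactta
The codon is TGA in GPX1 (codon 49, exon 1, chr3:49358132-49358134), GPX2 (codon 40, exon 1, chr14:64942607-64942609), GPX3 (codon 73, exon 2, chr5:151025469-151025471) and GPX4 (codon 73, exon 3, chr19:1105403-1105405). It is TGC, for cysteine, in GPX7 (codon 57, exon 2, chr1:52606714-52606716) and GPX8 (codon 79, exon 2, chr5:55161024-55161026). Each of the 4 selenium-dependent members held 1 in-frame TGA before its stop codon, and GPX7 and GPX8 held 0. The window of GPX3 shared 33 of its 51 bases with that of GPX7, 29 with GPX8, 28 with GPX1 and 27 with those of GPX2 and GPX4.

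GPX3 (ENSG00000211445; chr5:151020438-151028993, plus strand, GRCh38) was the member that differed most between the groups. It had 955, 1138 and 1553 counts in the cisplatin libraries, against 270, 469 and 473 in the PBS libraries. Scaled for library size these were 95.2, 101 and 93.3 CPM under cisplatin and 30.1, 30.8 and 33.0 CPM under PBS. The lowest cisplatin library thus lay far above the highest PBS library, and the libraries within each group lay close together. The fitted difference was 3.08-fold, with a 95% interval of 2.76 to 3.43 (log2 fold change 1.62 ± 0.08, SE, edgeR). By size of increase GPX3 stood at place 123 of 15063 tested genes, and at place 15 among called genes that averaged 5 CPM or more. Leaving out any 1 library kept its log2 fold change between 1.59 and 1.66.

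GPX2 (ENSG00000176153; chr14:64939152-64942905, minus strand) was the most abundant member. It had 443, 449 and 416 CPM in the cisplatin libraries, against 366, 347 and 302 CPM in the PBS libraries. The groups did not overlap, but the gap between them was small next to that of GPX3: the log2 fold change was 0.37 ± 0.08 (SE), or 1.29-fold. GPX4 (ENSG00000167468; chr19:1103926-1106791, plus strand) had 233, 244 and 261 CPM under cisplatin, against 217, 206 and 174 CPM under PBS. Its groups also lay apart, with a log2 fold change of 0.31 ± 0.09 (SE), or 1.24-fold.

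GPX1 (ENSG00000233276; chr3:49357171-49358600, minus strand) had 42.1, 38.3 and 43.8 CPM in the cisplatin libraries, against 40.4, 40.6 and 32.1 CPM in the PBS libraries. These values overlap, and its fold change of 1.10 had an interval of 0.955 to 1.27 that includes no difference. A processed pseudogene of GPX1, GPX1P1, had 14 counts over the cisplatin libraries and 20 over the PBS libraries, against 1581 and 1441 for GPX1 itself. The expected counts of all 6 members were whole numbers in every library, and no member shares exonic bases with another annotated gene.

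GPX8 (ENSG00000164294; chr5:55160118-55167071, plus strand) was barely detected, with 12, 3 and 13 counts under cisplatin, against 3, 1 and 4 under PBS. The groups overlap at these counts, and no fold is given. GPX7 (ENSG00000116157; chr1:52602372-52609051, plus strand) had no count in any cisplatin library and 1 count in PBS replicate 3, below the 3 counts per library that a count of 0 allows. GPX5 and GPX6, the remaining glutathione peroxidases among 8 by symbol and no members here, had 0 counts in all 6 libraries. Thus 4 of the 6 members passed the filter on low counts, and GPX7 and GPX8 did not.

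In the fit across all genes, 38.2% of tested genes were called. There, 3 of these 4 members (GPX2, GPX3 and GPX4) were called higher and 0 lower at an edgeR adjusted p under 0.05, where 18.9% of all tested genes were called higher and 19.3% lower. The same 3 had every cisplatin library above every PBS library, as did 25.2% of tested genes. With no filter on low counts, 4 members were called higher, the added one being GPX8 on its 28 counts under cisplatin and 8 under PBS, where 10.4% of all genes were called higher. DESeq2 did not call GPX8. Since GPX3 in this comparison led to the choice of the family, nothing is read from these counts. The median log2 fold change over all 15063 tested genes was near 0 (-0.000347).

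**Figure D1:**
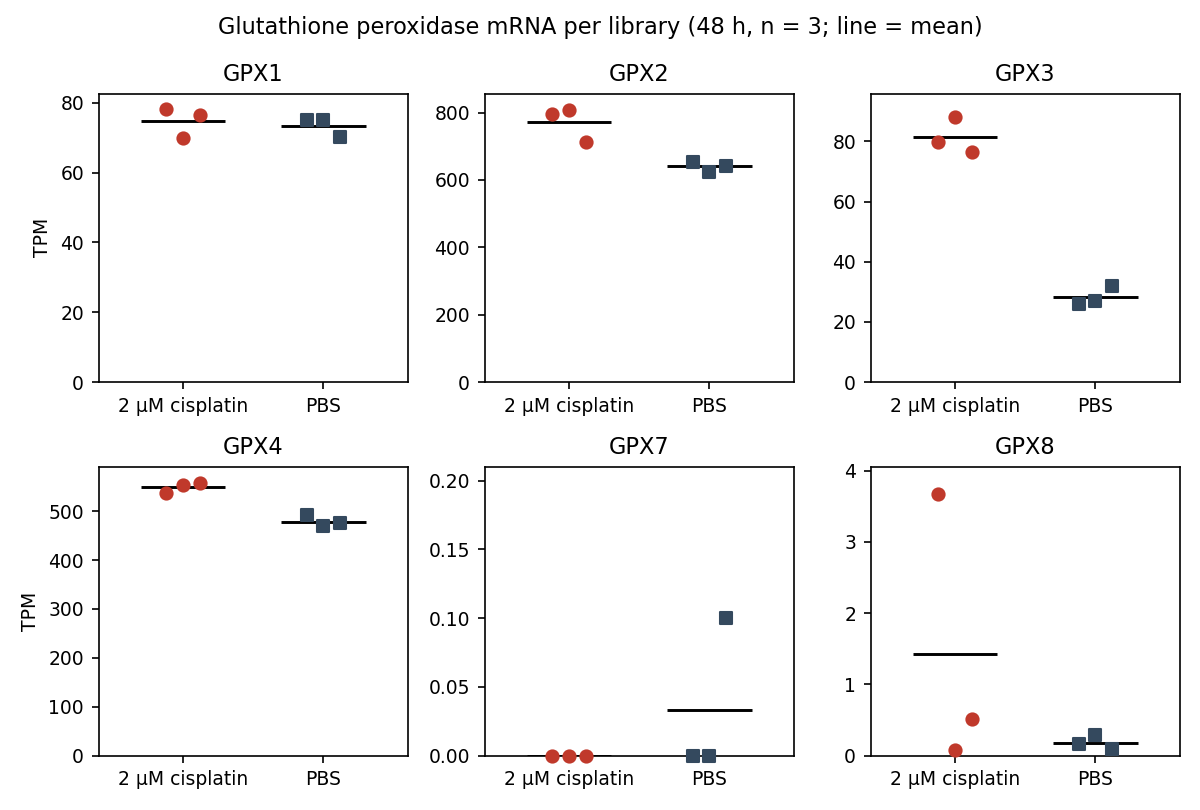
TPM of each of the 6 members (y axis from 0, its own scale in each panel) in the 3 libraries with 2 µM cisplatin (circles) and the 3 with PBS (squares), with the group mean as a line. GPX3 averaged 81.5 TPM under cisplatin and 28.3 TPM under PBS, GPX1 overlaps between the groups, and the high GPX8 point of 3.68 TPM rests on 12 counts.

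Levels of different genes were compared in TPM, which the authors scaled by transcript length. GPX2 stood highest in both groups, at 772 ± 51.2 TPM under cisplatin and 640 ± 15.2 TPM under PBS (SD, n = 3 each), where it ranked 183 and 201 of all genes. GPX4 followed at 549 ± 10.9 and 479 ± 11.3 TPM. In each group the GPX2 libraries all lay above the GPX4 libraries, so the order of these members exceeded their spread.

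The next places were held by GPX1 and GPX3, and their order differed between the groups. GPX3 had 79.8, 88.2 and 76.4 TPM in the cisplatin libraries, against 26.0, 27.0 and 31.9 TPM in the PBS libraries. GPX1 had 78.3, 70.0 and 76.4 TPM under cisplatin, against 75.1, 75.0 and 70.2 TPM under PBS. GPX3 and GPX1 therefore overlapped under cisplatin, while under PBS every GPX1 value lay above every GPX3 value. The ratio of GPX3 to GPX1 within a library was 1.02, 1.26 and 1.0003 under cisplatin and 0.346, 0.360 and 0.454 under PBS.

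In the ranking of all genes by mean TPM, GPX3 held place 1594 under cisplatin and 4273 under PBS, while GPX1 held places 1722 and 1840. GPX8 averaged 1.42 TPM under cisplatin and 0.183 TPM under PBS. Its TPM are unstable because the deposited transcript length for this gene ran from 577 to 3731 bases between libraries, against 1519 to 1594 bases for GPX3. GPX7 was listed at 0 TPM in every cisplatin library and at 0.10 TPM in PBS replicate 3.

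The 6 members together summed to 1479 ± 49.0 TPM under cisplatin and 1221 ± 25.7 TPM under PBS. GPX2 made up 52.1% ± 1.80 and 52.4% ± 0.199 of that sum, and GPX4 37.2% ± 1.74 and 39.2% ± 0.186. GPX3 made up 5.51% ± 0.266 under cisplatin and 2.32% ± 0.271 under PBS, and GPX1 5.07% ± 0.405 and 6.02% ± 0.259. GPX3 was thus a small part of the family's mRNA in both groups, although its fold change exceeded those of the other tested members.

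Transcript length moved with the fold change across all genes, and the 4 tested members are encoded by short transcripts. Tested genes were split into 5 bins of equal number by length. In the bin with the shortest transcripts, up to 1382 bases, the median log2 fold change was 0.20 and 31.2% were called higher. In the bin with the longest, the median was -0.24 and 6.44% were called higher. GPX1, GPX2 and GPX4, at 901, 916 and 794 bases, fall in the shortest bin, and GPX3, at 1553 bases, in the next one, whose median was 0.10. When each library was corrected for transcript length, the log2 fold change of GPX3 was 1.50 ± 0.08 (SE). Those of GPX2 and GPX4 were 0.15 ± 0.07 and 0.07 ± 0.06, and that of GPX1 was -0.08 ± 0.08. Of the 4 members, 1 (GPX3) was called under this correction, where 17.1% of all tested genes were called higher. With limma on log2(TPM + 1), 2 members were called higher, where 8.02% of all tested genes were. What transcript length contributes to the values of GPX2 and GPX4 was not tested beyond this correction.

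**Figure D2:**
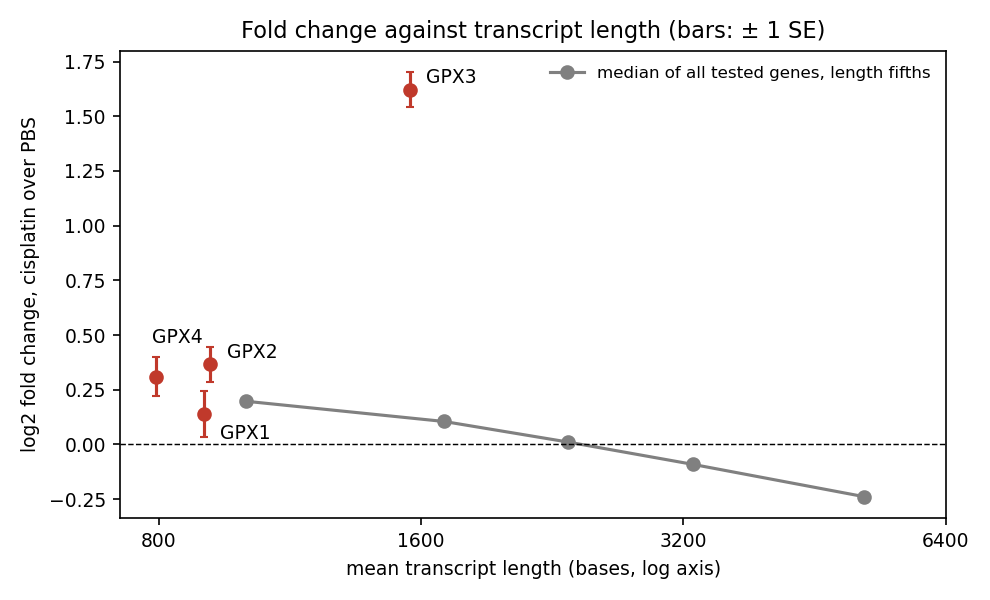
Log2 fold change, cisplatin over PBS (y axis), against mean transcript length in bases (x axis, log scale) for the 4 tested members (red, bars ± 1 SE) and for the median of all tested genes in 5 bins of length (grey). The grey line descends from 0.20 to -0.24, with GPX1, GPX2 and GPX4 near its left end and GPX3 far above it at 1.62.

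**Figure D3:**
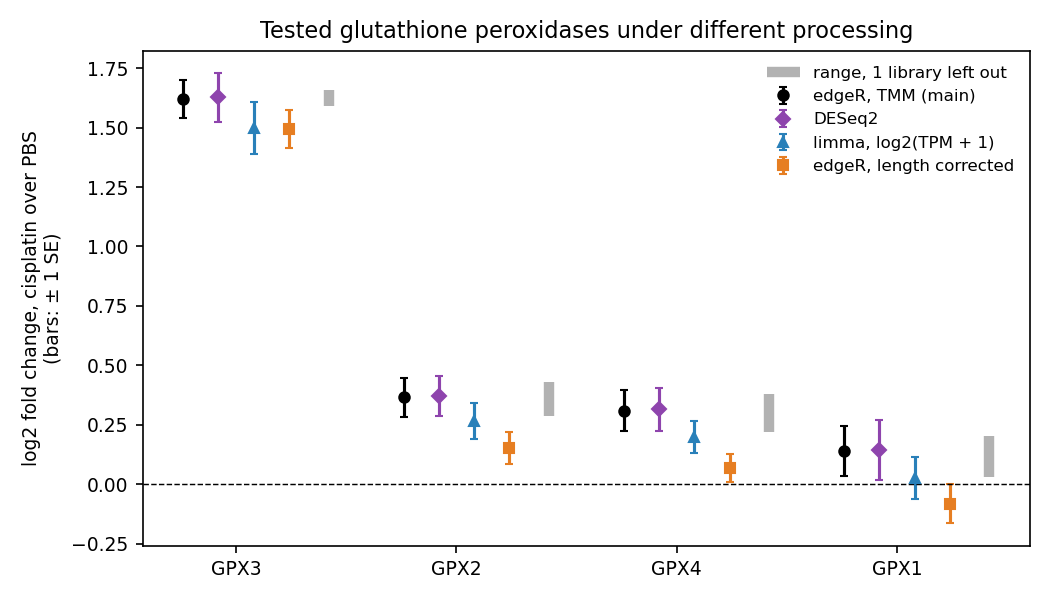
Log2 fold change of the tested members, cisplatin over PBS, in the main edgeR fit, DESeq2, limma on log2(TPM + 1) and the length-corrected edgeR fit (bars ± 1 SE), with the range over fits that leave out 1 library as a grey bar. GPX3 stays between 1.50 and 1.66, whereas GPX2, GPX4 and GPX1 approach or cross 0 after length correction.

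The 250 bases before the RefSeq start of GPX3, the member that differed most, and of GPX2, the most abundant, are given 5′ to 3′ on the coding strand (RefSeq, GRCh38.p14). All 6 members had promoter sequence in the table used. The motifs searched on both strands were the antioxidant response element core TGACNNNGC, which binds NRF2, the GC box GGGCGG, the CCAAT box CCAAT and the TATA box TATAAA, and capitals mark their matches.
GPX3, chr5:151020341-151020590, plus strand: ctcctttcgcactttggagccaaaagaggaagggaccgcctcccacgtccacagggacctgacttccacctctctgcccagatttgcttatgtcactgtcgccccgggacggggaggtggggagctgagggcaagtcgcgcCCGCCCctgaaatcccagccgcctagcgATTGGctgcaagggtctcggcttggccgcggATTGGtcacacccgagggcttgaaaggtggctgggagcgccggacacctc
GPX2, chr14:64942746-64942995, minus strand: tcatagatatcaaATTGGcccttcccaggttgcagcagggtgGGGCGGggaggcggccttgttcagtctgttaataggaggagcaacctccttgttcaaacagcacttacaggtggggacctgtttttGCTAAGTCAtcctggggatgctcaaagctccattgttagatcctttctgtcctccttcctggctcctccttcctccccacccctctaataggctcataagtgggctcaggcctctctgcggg
In GPX3 the matches were a GC box starting 109 bases before the start and CCAAT boxes at 81 and 50 bases, all on the other strand. GPX2 held an antioxidant response element core at 122 bases, a GC box at 208 and a CCAAT box at 237. The antioxidant response element core was found before 1 of the 6 members (GPX2) and in 10.9% of 35097 promoters. GC boxes were found before 5 members and in 42.6% of promoters, and CCAAT boxes before 3 members and in 32.0%. TATA boxes were found before 0 members and in 10.7%. A member was counted if any of its windows matched, and GPX4 had several, not all with a CCAAT box. The percentages are over single windows, so members and percentages are not counted alike. A match describes letters only and is not shown to be a working site, and a missing one says only that these letters are not in this window.

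The genes beside the members were looked at because the strand setting of the counting is not known. TNIP1, an inhibitor of NF-kB signalling whose end lies 952 bases from that of GPX3 on the opposite strand, rose by 0.20 ± 0.07 on the log2 scale, which holds for every such change given here (SE; edgeR adjusted p = 0.0409), far less than GPX3. CHURC1, which overlaps GPX2 on the opposite strand without shared exonic bases, rose by 0.58 ± 0.11 (edgeR adjusted p = 0.00123). It stood at 25.2 ± 1.36 CPM under cisplatin and 16.8 ± 1.57 CPM under PBS. RHOA next to GPX1 and SBNO2 next to GPX4 did not pass (log2 fold changes 0.06 and -0.12, edgeR adjusted p = 0.518 and 0.378), nor did RAB15 near GPX2 (0.29, edgeR adjusted p = 0.0888).

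The profiles nearest that of GPX3 were sought among 10540 candidates (protein-coding, averaging 5 CPM or more), by the root mean square difference of log2 CPM over the 6 libraries after each gene was centred on its PBS mean. The 5 nearest were C6orf15, AVIL, SLC9A4, GFRA3 and MYO7A, at differences of 0.07, 0.08, 0.11, 0.12 and 0.13. After this centring the measure mostly picks genes with a fold change like that of GPX3, the value by which the family was chosen. Their log2 fold changes ran from 1.52 to 1.76, beside 1.62 for GPX3. Shared regulation was not tested. AVIL, an actin-binding protein of the villin family, stood at 49.3 ± 3.18 CPM under cisplatin and 16.1 ± 1.26 CPM under PBS. C6orf15 stood at 89.0 ± 0.255 and 29.3 ± 0.635 CPM. AVIL shares 5.14% of its exonic bases with TSFM on the opposite strand, so its value is less certain.

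Among 16 tested of 20 other selenoprotein genes, 5 rose and 2 fell (median log2 fold change 0.16), beside 18.9% called higher and 19.3% lower among all tested genes. SELENOP, the selenium carrier that is secreted into plasma like GPX3, was the one with the largest change. It had 13.1, 15.1 and 9.85 CPM in the cisplatin libraries, against 4.24, 5.20 and 4.74 CPM in the PBS libraries, with no overlap. Its log2 fold change was 1.39 ± 0.18 (SE; edgeR adjusted p = 1.42e-04), and 1.29 after length correction. Unlike those of the members, its expected counts were not all whole numbers (lowest 130.69 under cisplatin and 37.59 under PBS), so its value is less certain. Expected counts of LRP8, SCLY, GCLC, SOD2, SAT1, FTH1 and VKORC1L1, named below, were not all whole numbers either. SELENOW, a small selenoprotein of the thioredoxin-like fold, rose by 0.78, and the methionine sulfoxide reductase MSRB1 by 0.48 (edgeR adjusted p = 1.59e-04 and 0.00186). After length correction MSRB1 stood at 0.32. Thioredoxin reductase TXNRD1 fell by 0.49 and the phospholipid enzyme SELENOI by 0.49 (edgeR adjusted p = 6.60e-04 and 0.00199). SELENOI was not called after length correction (-0.16, edgeR adjusted p = 0.176). Without cisplatin replicate 1, 3 of the selenoproteins were called higher in place of 5. Over all 15063 tested genes that fit called 2118 higher in place of 2851. Length correction left 4 of them called higher and 1 lower, beside 2575 and 2543 of 15063 tested genes.

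Genes that make, insert, take up or recycle selenocysteine counted 0 higher and 5 lower of 11 tested, at a median of -0.18. Among all tested genes the shares were the same 18.9% higher and 19.3% lower. After length correction 0 were called higher and 6 lower, beside 2575 and 2543 of 15063 tested genes. LRP8, a receptor that takes up SELENOP, stood at 29.9 ± 0.568 CPM under cisplatin and 58.3 ± 3.93 CPM under PBS (log2 fold change -0.96 ± 0.09, edgeR adjusted p = 1.39e-05). The selenocysteine lyase SCLY fell by 0.48 and SECISBP2, which binds the insertion element of selenoprotein mRNAs, by 0.52 (adjusted p = 0.00128 and 0.00180). Of the selenium-dependent members GPX1 to GPX4, which need this machinery, 0 were called lower, but nothing is read from this. The family was chosen by the higher count of GPX3 in this comparison, and 19.3% of all tested genes were called lower. The difference between the lists was not tested.

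For glutathione itself, 6 of 27 tested genes of synthesis and recycling rose and 6 fell (median 0.03). This is near the shares over all tested genes, 18.9% higher and 19.3% lower, and is no result about the list. Glutathione synthetase GSS rose by 0.51, the gamma-glutamyltransferase family member GGT7 by 0.72 and glutaredoxin GLRX by 1.07 (edgeR adjusted p = 3.46e-04, 3.32e-04 and 0.00311). GLRX was low, at 7.57 ± 0.840 CPM under cisplatin and 3.55 ± 1.33 CPM under PBS. Leaving out 1 library moved its log2 fold change between 0.85 and 1.46, and length correction gave 0.85. GCLC, of the first step of synthesis, fell by 0.39, glutathione reductase GSR by 0.41 and the cystine transporter subunit SLC3A2 by 0.33 (adjusted p = 0.00201, 0.00277 and 0.00520). GCLC shares 6.12% of its exonic bases with an unnamed gene on the same strand, so its value is less certain. The number lower was 3 without PBS replicate 2 and 3 without cisplatin replicate 1. Over all 15063 tested genes these fits called 2651 and 2093 lower, in place of 2901. Length correction left 4 genes of the list called higher and 5 lower, beside 2575 and 2543 of 15063 tested genes.

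Of 16 tested genes for other enzymes against peroxide and superoxide and their regulators, 7 rose and 2 fell (median 0.23), beside 18.9% higher and 19.3% lower over all tested genes. In the bin of shortest transcripts the median was 0.20 and 31.2% were called higher. The sestrin SESN3 rose by 0.68, superoxide dismutase SOD1 by 0.50 and the thioredoxin inhibitor TXNIP by 0.37 (edgeR adjusted p = 6.20e-04, 8.11e-04 and 0.00138). Length correction gave 1.03 for SESN3 and 0.28 for SOD1. It left 6 genes of this list called higher and 2 lower, beside 2575 and 2543 of 15063 tested genes. Mitochondrial SOD2 fell by 0.40 and sulfiredoxin SRXN1, which repairs peroxiredoxins, by 0.36 (edgeR adjusted p = 0.00191 and 0.0117). SOD2 shares 1.81% of its exonic bases with WTAP on the opposite strand. Around GPX4, 6 of 17 tested genes of lipid peroxidation and ferroptosis rose and 3 fell (median 0.06), against the same all-gene shares of 18.9% and 19.3%. The polyamine acetyltransferase SAT1 rose by 1.07, heme oxygenase HMOX1 by 0.89 and the ferritin light chain FTL by 0.41 (edgeR adjusted p = 3.25e-06, 9.20e-05 and 0.00349). Length correction gave 0.18 for FTL and left 5 genes of the lipid peroxidation list called higher and 3 lower. The ferritin heavy chain FTH1, singled out after its values were seen, was not called (-0.11, edgeR adjusted p = 0.285) but was lower after length correction (-0.32, edgeR adjusted p = 0.00117). The transferrin receptor TFRC fell by 0.62 (adjusted p = 1.24e-04). VKORC1L1 fell by 0.46 but was not called after length correction (adjusted p = 0.00218 and 0.0573). DHODH fell by 0.29 (adjusted p = 0.0252), a call lost without PBS replicate 1 or 3 or any one cisplatin replicate (edgeR adjusted p from 0.0543 to 0.0888) and with DESeq2 (adjusted p = 0.0782). With limma on TPM, the calls of SCLY, TXNIP, SRXN1 and DHODH were lost at both pseudocounts, and that of GSS at a pseudocount of 0.1.

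**Figure D4:**
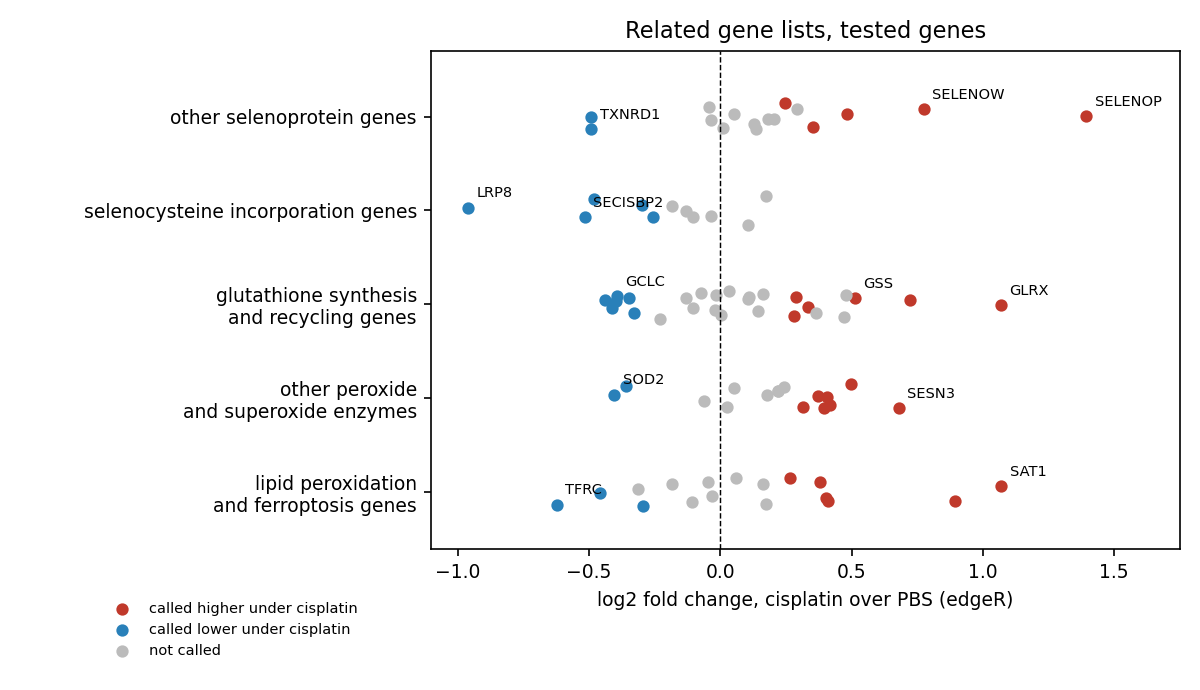
Log2 fold change, cisplatin over PBS, of every tested gene (points) in 5 lists related to the family, with genes called higher in red, called lower in blue and not called in grey. SELENOP lies at the right at 1.39 and LRP8 at the left at -0.96, while the 5 called selenocysteine genes all lie left of 0.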

How the data were processed

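Each library has a gene table of the RSEM kind, per the file headers. In it the authors give unnormalized expected counts, TPM (scaled by effective length and library), and transcript lengths in bases. FPKM were also deposited and are not used here. Reads were aligned with STAR 2.7.9 to GRCh38, per the submitters' processing notes; for the quantifier's version, the annotation and the strand setting, nothing is given in the sources used. Symbols matched 61399 of 61552 gene identifiers, and positions came from GENCODE 29.

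Rounded expected counts went into edgeR 4.0.16 (R 4.3.3). The filter was filterByExpr (min.count 10, min.total.count 15), and 15063 genes passed; libraries were scaled by TMM, and group was the single term of the quasi-likelihood fit. Benjamini-Hochberg adjustment ran over all tested genes, and genes were called under 0.05. Each SE is the size of the log2 fold change over the root of its F statistic. The 95% intervals of the members use this SE with a normal quantile. That takes no account of the small number of libraries, so they are somewhat too narrow. No library was a copy of another (chi-square per degree of freedom within groups from 2.93 to 20.9). The script was tested on simulated data. Alternatives were scaling by RLE, by upper quartile or by total count, 2 other filters, DESeq2 1.42.0, limma 3.58.1 (voom, and TPM with pseudocounts of 1 and 0.1), a lowess correction for transcript length, protein-coding nuclear genes only, a replicate block, and each library left out. Intervals from counts of 0 cover counting error only.

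The members, the 5 related lists and the markers were chosen with earlier results of these data known. Genes named are the members, their neighbours, up to 3 called genes per list and direction by smallest adjusted p, and the 5 profiles nearest GPX3.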

Additional observations from a re-analysis of the deposited data

How the results depend on the processing

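Scaling, filters, DESeq2, limma-voom, the replicate block and protein-coding genes alone left each of the counts of called genes within 1.5 times and each tested member's log2 fold change within its spread between replicates. On TPM, limma called 2861 genes (2815 with a pseudocount of 0.1) against 5752 in edgeR, 3 (3) selenocysteine genes against 5, 7 (6) glutathione genes against 12 and 5 (5) lipid peroxidation genes against 9, and GPX3 stood at 1.50 (1.53); the cause was not tested. Length correction gave -0.081 for GPX1, 0.15 for GPX2, 1.50 for GPX3 and 0.069 for GPX4, and 1 member called against 3. Without mitochondrially encoded genes, the TPM of GPX4 were 578 under cisplatin and 516 under PBS, and those of GPX2 812 and 691. Those of GPX1 were 78.8 under cisplatin and 79.2 under PBS, in place of 74.9 and 73.4. Leaving out 1 library gave 4211 to 5289 called genes, 2 to 3 members, 5 to 7 selenoproteins, 4 to 5 selenocysteine, 8 to 12 glutathione, 9 to 11 peroxide and 6 to 9 lipid peroxidation genes, and log2 fold changes of 0.03 to 0.20 for GPX1, 0.29 to 0.43 for GPX2, 1.59 to 1.66 for GPX3 and 0.22 to 0.38 for GPX4. Same-numbered libraries did not deviate together (correlations 0.066, 0.123 and -0.076); with the replicate block 5819 genes and 3 members were called. Of 450 comparisons of named related genes across alternatives, 433 kept direction and call and 17 lost the call. With no filter on low counts GPX8 was also called, making 4 members; GPX7 had too few counts for a fold change.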
